A study of Mus musculus with 217 samples.

Results

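This comparison set 3 pools of granulosa cells from old wild-type mice given resveratrol against 3 pools from old wild-type mice given the solvent alone. The pools were chosen by the labels, whose titles begin GC_OWTR for resveratrol and GC_OWTC for control. They are 6 of 18 granulosa pools and 6 of 217 samples in the series. Both groups were female, 10 months old, wild type for Tet2 and of mixed C57BL6/129 background. The resveratrol group drank water with 30 mg of resveratrol per L, brought into solution with 500 µl of DMSO, from the age of 2 months. Control water held the same 500 µl of DMSO per L and no resveratrol. All mice had received 5 IU of pregnant mare serum gonadotropin 46 h before the cells were taken, so every pool came from a hormone-primed ovary. No label names the animal behind a pool, and the p-values therefore measure the spread between pools, which may be technical.

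The series title concerns resveratrol and the ageing ovary, and its other samples are single oocytes and granulosa pools of other ages or of the Tet2 knockout label. Granulosa cells were freed by puncturing visible follicles, passed through a 40 µm strainer to hold back oocytes, and made into Smart-seq2 libraries read as pairs of 150 bp. The number of cells in a pool is 500 in one label and 50 in another, which leaves it unsettled. Old pools labelled Tet2 knockout, 3 with resveratrol and 3 without, are used below for a test of the difference between the resveratrol effects. The main model takes in all 18 granulosa pools, so its p-values rest on a spread shared by all of them. These include 3 young wild-type and 3 young knockout-labelled pools. The young mice were 2 months old and had no resveratrol, and their labels give no DMSO.

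Granulosa cells line the follicle, convert androgen to oestrogen, feed the oocyte through gap junctions, and become luteal cells after ovulation. Resveratrol is a plant polyphenol, known as an activator of sirtuin deacetylases and AMP-activated kinase, as a ligand of oestrogen receptors and the aryl hydrocarbon receptor, and as an inducer of antioxidant enzymes. Mitochondria of granulosa cells take part in steroid synthesis, since the first step from cholesterol takes place on their inner membrane. The respiratory chain passes electrons through complexes I to IV and uses the resulting proton gradient in complex V to make ATP.

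Total counts were 15084391, 11950782 and 13067511 in the resveratrol pools, against 5995491, 18474409 and 14831950 in the control pools, so control pool 1 was the shallowest of the 6. Levels are given as CPM, counts scaled to 1000000 per library after TMM scaling, in the order of pools 1, 2 and 3. The first principal component of the 6 libraries held 34.7% of the variance and had the resveratrol pools on one side and the control pools on the other. The second held 21.1% and set resveratrol pool 1 (−60.9) against resveratrol pools 2 and 3 (39.4 and 34). Granulosa genes were present in every pool. Inha, the inhibin alpha subunit, had 1555, 1258 and 1262 CPM in resveratrol pools, against 708, 670.1 and 1035 CPM in control pools, a difference that did not pass (log2 0.76, adjusted p = 0.319). Foxl2, the transcription factor that keeps granulosa identity, had 5.93, 4.92 and 4.64 CPM in resveratrol pools, against 6.83, 6.61 and 5.76 CPM in control pools. Aromatase (Cyp19a1) was low, at 2.38, 2.87 and 5.45 CPM with resveratrol and 1.71, 3.3 and 2.91 CPM without. None of 25 tested genes of granulosa identity and FSH response passed in edgeR, 3 of them had an unadjusted p under 0.05, and DESeq2 called 1 higher and 1 lower. Their summed counts were 0.283% to 0.319% of a resveratrol library and 0.318% to 0.327% of a control library. In pools, fewer cells of a type and less RNA per cell cannot be told apart.

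Resveratrol pools differed from control pools in 285 of 17558 genes tested, at an adjusted p of 0.05 in edgeR's quasi-likelihood test with Benjamini-Hochberg adjustment. Of these, 205 were higher (1.17% of genes tested) and 80 were lower (0.456%). Numbered, clone-named and pseudogene models made up 40 of the 205 and 11 of the 80. Models named after clones alone were 3387 of the genes tested. Some can repeat the reads of a named gene, so the calls are not all separate genes. The groups did not overlap in 203 of the 205 and in 76 of the 80. Over all tested genes, 17.6% had every resveratrol pool above every control pool and 12.9% had every one below. The rises included 22 subunits of the respiratory chain, 17 cytosolic ribosomal proteins and 5 proteasome subunits, and the largest in size were led by genes of macrophages and osteoclasts. The falls included the cytokine feedback gene Socs3, the matricellular genes Cyr61 and Ctgf, and the lysosomal membrane gene Lamp1. With DESeq2's size factors in place of TMM the split was 93 higher and 72 lower, with an offset for transcript length and GC content it was 156 higher and 120 lower, and with no filter on low counts, over 32472 genes, it was 260 higher and 282 lower. Fits that leave out 1 library are those of the model of 18 libraries, except where the 4 old groups are named. The median log2 difference over all tested genes was 0.015.

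**Figure D1:**
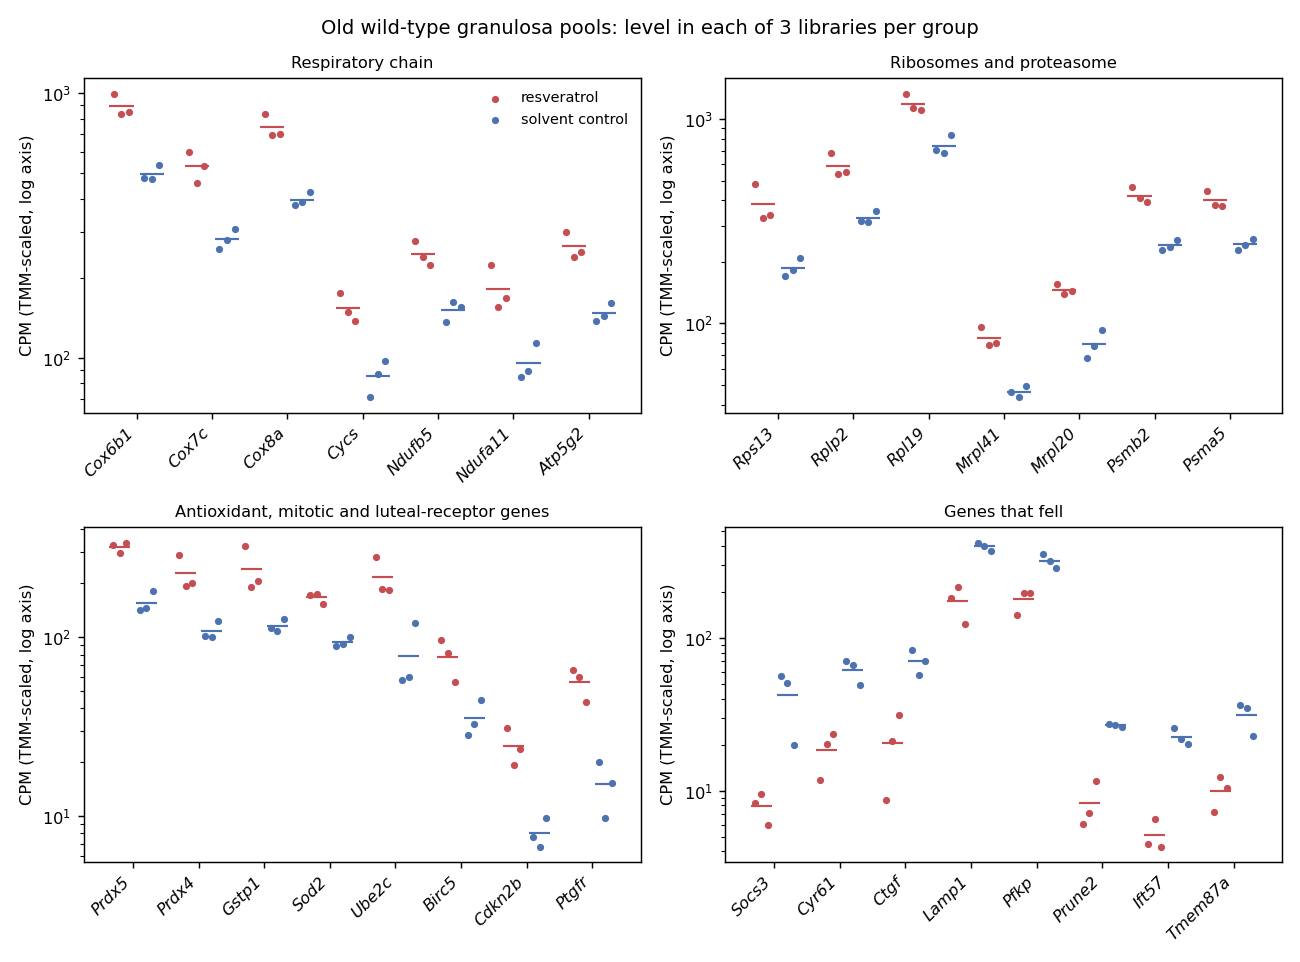
Level of named genes in each old wild-type granulosa pool, as TMM-scaled CPM on a log axis, resveratrol (red) left of solvent control (blue) for each gene, 1 dot per library and a line at the mean of 3. In the genes of the respiratory chain, ribosomes and proteasome every resveratrol dot lies above every control dot, as Cox6b1 shows with 833 CPM as its lowest resveratrol value and 534 CPM as its highest control value.

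The counts of short and of long transcripts differed between the groups. Transcripts under 1 kb took 14.5%, 11.8% and 12.03% of the counts of resveratrol pools 1, 2 and 3, against 9.675%, 9.849% and 10.47% in the control pools, and the groups did not overlap. Transcripts over 5 kb took 8.658%, 9.249% and 9.182% in resveratrol pools, against 10.83%, 11.3% and 10.28% in control pools. The median log2 difference was 0.48 for 1204 tested genes with a longest transcript of up to 1 kb and −0.14 for 4587 genes of over 3 and up to 5 kb. Of the shortest class 75 rose and 5 fell, while 4 of 2897 genes over 5000 bases rose and 12 fell. In the old knockout-labelled pools the same classes had medians of 0.09 and −0.01. There, transcripts under 1 kb took 14.52%, 12.67% and 13.05% of counts with resveratrol and 12.31%, 11.89% and 12.53% without. The libraries without resveratrol thus lay above the wild-type controls and within the range of the wild-type resveratrol libraries. The part of the length shift in the results was not tested, and the main lists are given below also with an offset that flattens it.

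**Figure D2:**
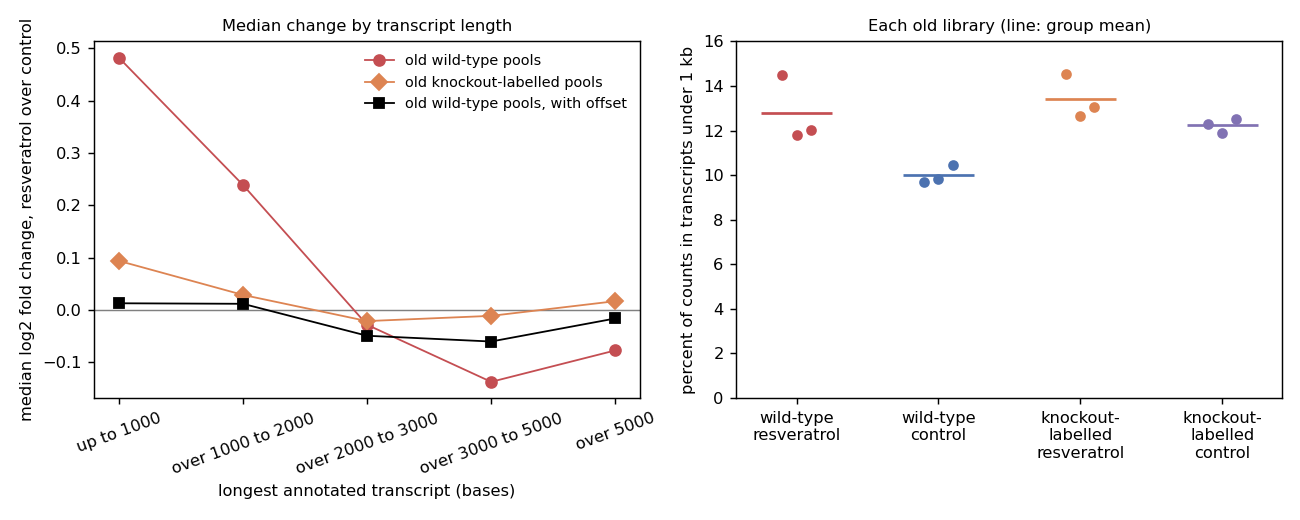
Left, median log2 fold change (resveratrol over control) of tested genes in 5 classes of transcript length, for old wild-type pools (red), old knockout-labelled pools (orange) and old wild-type pools after the length and GC offset (black). Right, percent of counts in transcripts under 1 kb in each old library, with group means as lines. The 3 wild-type resveratrol libraries sit at 11.8% to 14.5% and the 3 wild-type controls at 9.675% to 10.47%. Knockout-labelled libraries sit at 12.67% to 14.52% with resveratrol and at 11.89% to 12.53% without.

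Nuclear genes for respiratory chain subunits stood above control in nearly all cases. Of 79 tested subunits of complexes I to V, 22 rose and 0 fell, 76 had a positive log2 difference, and 73 had no overlap between the groups. Their median log2 difference was 0.69, against 0.015 over all genes tested. By complex, 8 of 36 rose in complex I, 0 of 4 in complex II, 1 of 10 in complex III with cytochrome c, 8 of 13 in complex IV and 5 of 16 in complex V. Complex IV, cytochrome c oxidase, had the highest median of the 5 (0.82). Cox6b1, a subunit on the side of the intermembrane space (chromosome 7, 30616861 to 30626151, minus strand, GRCm38), had 998, 833 and 848 CPM in resveratrol pools, against 478, 472 and 534 CPM in control pools (log2 0.85, SE 0.18, adjusted p = 0.0273). Cox8a, a small membrane subunit, had 838, 694 and 704 CPM in resveratrol pools, against 378, 388 and 424 CPM in control pools (log2 0.91, SE 0.20, adjusted p = 0.03). Cox7c had 602, 459.6 and 530.4 CPM in resveratrol pools, against 258, 279 and 307 CPM in control pools (log2 0.92, SE 0.20, adjusted p = 0.0287). In all 3 genes the lowest resveratrol pool lay above the highest control pool, and resveratrol pool 1 was the highest of the 6. Cox7a2, Cox6c and Cox5a, subunits of the same enzyme, rose by log2 0.88, 0.82 and 0.78.

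Cytochrome c itself, the mobile carrier between complexes III and IV that also triggers apoptosis when released, followed the same pattern. Cycs had 175, 149 and 138 CPM in resveratrol pools, against 70.7, 86.6 and 97.4 CPM in control pools (log2 0.86, SE 0.20, adjusted p = 0.0369), with no overlap. In complex I, Ndufb5 had 277, 239.9 and 225 CPM in resveratrol pools, against 137, 162 and 155 CPM in control pools (log2 0.71, SE 0.17, adjusted p = 0.044). Ndufa11 had 224, 156 and 168 CPM in resveratrol pools, against 84.2, 88.8 and 114 CPM in control pools (log2 0.93, SE 0.23, adjusted p = 0.0447). Both encode accessory subunits of the membrane arm, and in both the groups stood apart. In complex V, Atp5g2, a gene for the rotating c subunit, had 298, 240.5 and 252 CPM in resveratrol pools, against 137, 144 and 161 CPM in control pools (log2 0.84, SE 0.21, adjusted p = 0.0443). Atp5k, Atp5l, Atp5h and Atp5j, which encode further ATP synthase subunits, rose by log2 0.81, 0.81, 0.72 and 0.74. The complex II anchors Sdhc and Sdhd did not pass. Sdhc had 304, 279 and 275 CPM in resveratrol pools, against 172, 171 and 209 CPM in control pools (log2 0.64, adjusted p = 0.0686). The assembly factors of the chain contributed 1 rise among 37 tested: Cox18, which inserts a core subunit of complex IV into the membrane, had 23.3, 19 and 15.6 CPM in resveratrol pools, against 9.94, 10 and 9.54 CPM in control pools (log2 0.97, adjusted p = 0.0414).

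With the length and GC offset, 8 of 79 subunits passed and the median was 0.27, with Ndufb5 (log2 0.74, adjusted p = 0.0202), Cox6c (log2 0.81, adjusted p = 0.0195), Atp5g2 (log2 0.61, adjusted p = 0.0264) and Ndufa11 (log2 0.59, adjusted p = 0.0429) kept and Cox6b1 (log2 0.26, adjusted p = 0.408), Cox8a (log2 0.43, adjusted p = 0.0729), Cox7c (log2 0.38, adjusted p = 0.45) and Cycs (log2 0.68, adjusted p = 0.0531) not. With any 1 of the 6 libraries left out of the model of 18 libraries none of the 79 passed, at medians of 0.55 to 0.75. In the model of the 4 old groups 49 passed with all libraries, 18, 34 and 40 without resveratrol pools 1, 2 and 3, and 2, 2 and 50 without control pools 1, 2 and 3. With DESeq2's size factors 6 passed.

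**Figure D3:**
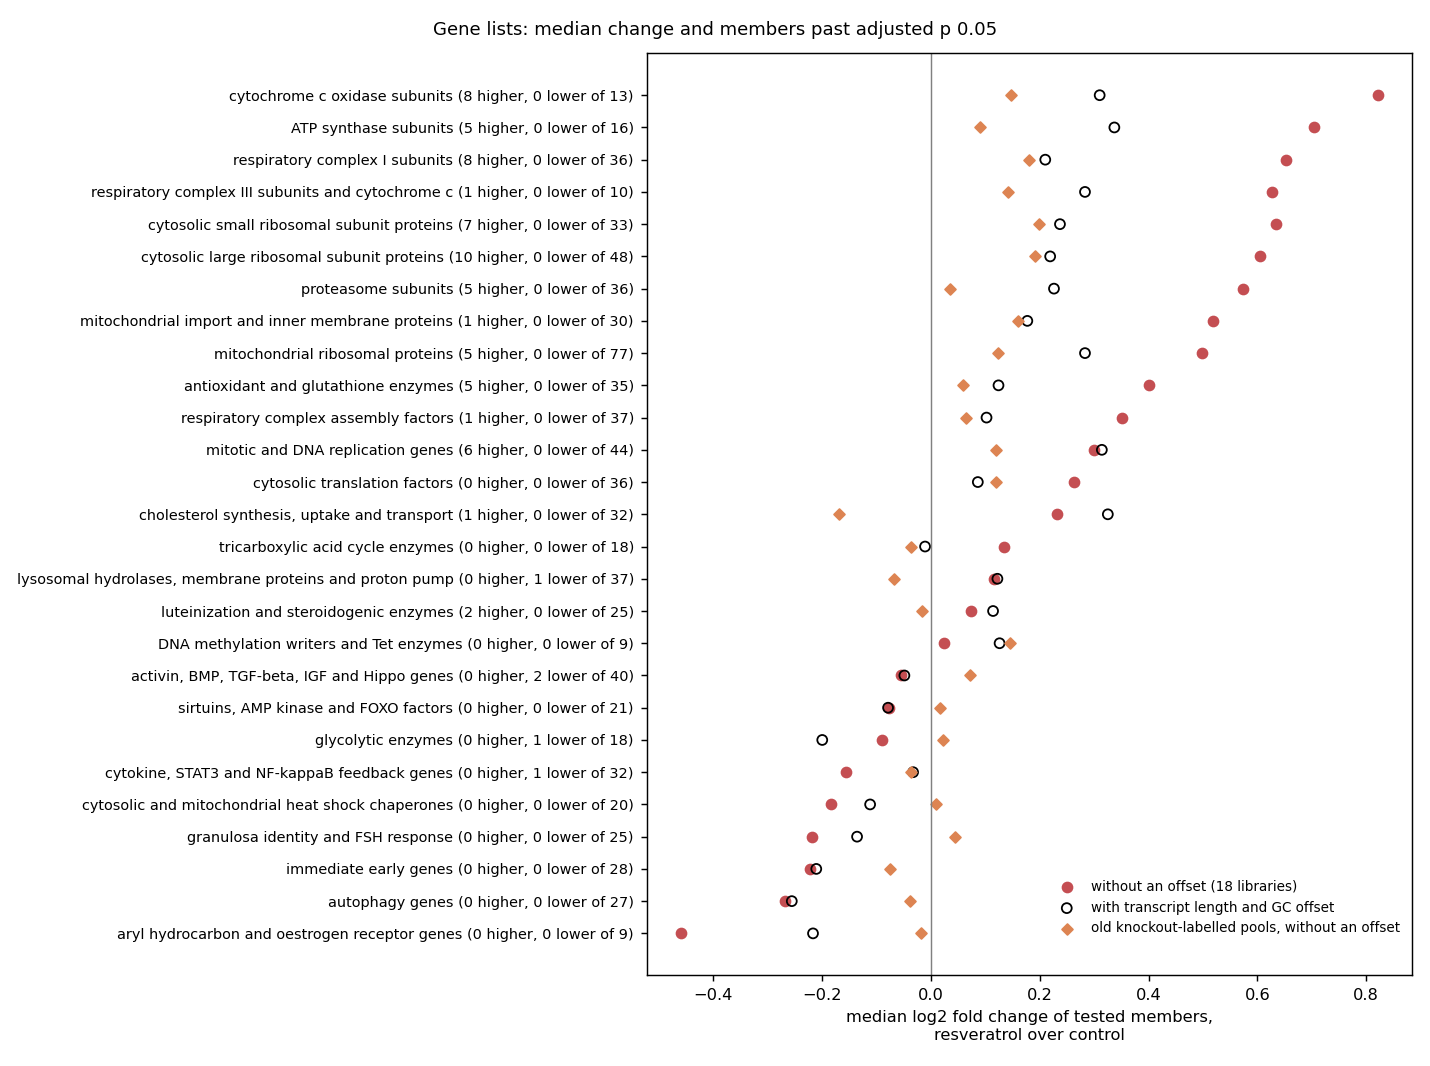
Median log2 fold change (resveratrol over control) of the tested members of each gene list: filled red, old wild-type pools without an offset; open, the same pools with the length and GC offset; orange diamonds, old knockout-labelled pools. Labels give how many members passed in each direction: complex IV reaches 0.82 without the offset and 0.31 with it, while the mitotic list is at 0.30 and 0.31.

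Promoters of 4 genes that rose are shown, because motifs of NRF1 and ETS factors, known regulators of mitochondrial and ribosomal genes, can be read in them. The sequences are from RefSeq (GRCm38.p6) and end 1 base before the first listed start of transcription, 70 bases for Cycs and Ndufa11 and 200 for Rpl37 and Mrpl52, written 5′ to 3′ on the strand of the gene. They hold no exon of another gene. Capitals mark GCGCANGCG, the NRF1 motif, in Cycs and Ndufa11 (in Ndufa11 2 overlapping matches), and CCGGAAG, the ETS motif, in Rpl37 and Mrpl52, each searched on both strands.
Cycs, chr6:50566570-50566639, minus strand: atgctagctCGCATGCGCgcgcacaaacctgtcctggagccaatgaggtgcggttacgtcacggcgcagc
Ndufa11, chr17:56717692-56717761, plus strand: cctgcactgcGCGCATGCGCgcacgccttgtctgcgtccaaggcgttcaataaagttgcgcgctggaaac
Rpl37, chr15:5116413-5116612, plus strand: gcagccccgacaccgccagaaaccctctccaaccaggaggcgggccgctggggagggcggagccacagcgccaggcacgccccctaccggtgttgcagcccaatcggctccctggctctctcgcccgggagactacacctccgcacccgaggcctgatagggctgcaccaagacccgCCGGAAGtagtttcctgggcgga
Mrpl52, chr14:54426709-54426908, plus strand: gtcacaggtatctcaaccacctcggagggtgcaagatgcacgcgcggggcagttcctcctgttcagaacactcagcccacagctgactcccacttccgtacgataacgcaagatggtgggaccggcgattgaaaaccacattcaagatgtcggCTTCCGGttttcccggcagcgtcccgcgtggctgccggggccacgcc

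The motif shares were counted over windows of 300 bases, at the first start listed for each gene. The NRF1 motif stood in 30.8% of 65 respiratory chain promoters, in 13.5% of 10112 promoters of tested genes and in 6.47% of all 27025 promoters in the table. Among the promoters of genes that rose it was in 20 of 135 (14.8%), near the share of tested genes. Among those that fell it was in 6 of 53 (11.3%). The ETS motif stood in 36 of 135 promoters of genes that rose (26.7%) and in 9 of 53 of genes that fell (17%), against 17.4% of tested genes and 9.12% of all promoters. It was in 40% of 60 promoters of cytosolic ribosomal proteins. The YY1 motif AANATGGCG was in 5 of 135, 1 of 53 and 5.16%, and the STAT motif TTCNNNGAA in 11 of 135, 5 of 53 and 6.81%, for genes that rose, genes that fell and genes tested. The PU.1 motif GAGGAAGT was in 7 of 135, 1 of 53 and 2.94%, and matches to the TEAD motif GGAATG in 15 of 135, 6 of 53 and 11.8%. A match is a description of these letters and not a bound site.

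Cytosolic ribosomal protein genes, whose products build the 2 subunits that translate messenger RNA, stood above control in nearly all cases as well. Of 81 tested, 17 rose and 0 fell, 79 had a positive difference, 79 had no overlap, and the median log2 difference was 0.62. Rps13 had 484, 328 and 339 CPM in resveratrol pools, against 170.3, 183 and 208 CPM in control pools (log2 1.03, SE 0.20, adjusted p = 0.0231). Rplp2, a protein of the stalk that binds elongation factors, had 683, 536 and 548 CPM in resveratrol pools, against 316, 315 and 354 CPM in control pools (log2 0.84, SE 0.20, adjusted p = 0.0369). Rpl19 had 1333, 1137 and 1103 CPM in resveratrol pools, against 706, 683 and 833 CPM in control pools (log2 0.69, SE 0.16, adjusted p = 0.038). The groups stood apart in each, with resveratrol pool 1 the highest. These genes have many processed pseudogenes, and reads shared with them cannot be told apart. In the knockout-labelled pools the median difference was 0.19 for large-subunit and 0.20 for small-subunit proteins. With the offset 9 of 81 passed at a median of 0.23, Rps13 among them (log2 0.83, adjusted p = 0.0208). With DESeq2's size factors in place of TMM 1 of 81 passed, at a median of 0.58. Without 1 library at a time 0 or 1 of 81 passed in the model of 18 libraries. In the model of the 4 old groups 54 passed with all libraries, 8, 28 and 33 without resveratrol pools 1, 2 and 3, and 2, 2 and 44 without control pools 1, 2 and 3.

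Cytosolic translation factors did not follow the ribosomal proteins into the calls. None of 36 passed in edgeR, 13 had an unadjusted p under 0.05, and DESeq2 called 3 higher and 1 lower. The model of the 4 old groups called 4 higher and 1 lower. Of the 36, 26 were above 0, at a median log2 difference of 0.26. Every resveratrol pool lay above every control pool in 21 and below in 4, against 17.6% and 12.9% of all tested genes. Eef1a1, the elongation factor that brings transfer RNA to the ribosome, had 7951, 6891 and 7043 CPM in resveratrol pools, against 6469, 6199 and 5551 CPM in control pools (log2 0.26, adjusted p = 0.433). Ribosomal proteins of the mitochondrion, which translate the mitochondrially encoded subunits, had 5 rises among 77 tested and a median of 0.50. Mrpl20 had 155, 139 and 144 CPM in resveratrol pools, against 67.9, 77.3 and 92.9 CPM in control pools (log2 0.88, SE 0.18, adjusted p = 0.0238). Mrpl41 had 96.1, 78.5 and 79.7 CPM in resveratrol pools, against 46.3, 43.3 and 49.1 CPM in control pools (log2 0.88, SE 0.18, adjusted p = 0.0238). Mrpl52, Mrps6 and Mrps28 also rose, and none of the 5 overlapped between groups. With the offset 3 of 77 passed, Mrpl20 (log2 0.35, adjusted p = 0.193) and Mrpl41 (log2 0.36, adjusted p = 0.153) not among them, and without 1 library at a time 0 or 1 passed.

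The proteasome, which degrades ubiquitinated proteins, has a barrel-shaped core. Of 36 tested subunits, 5 rose and 0 fell, 34 were above 0, and the median was 0.57. All 5 encode core subunits, but the shift was wider than these calls. Every resveratrol pool lay above every control pool in 27 of the 36, against 17.6% of all tested genes. In edgeR 24 were higher at an unadjusted p under 0.05, and the model of the 4 old groups called 20 higher. The core was not tested against the other subunits. Psmb2 had 465, 409.8 and 391 CPM in resveratrol pools, against 228, 237 and 257 CPM in control pools (log2 0.81, SE 0.17, adjusted p = 0.0267). Psma5, of the outer ring, had 444, 379 and 376 CPM in resveratrol pools, against 229.7, 241 and 259.7 CPM in control pools (log2 0.72, SE 0.16, adjusted p = 0.0298). Psmb7, a catalytic subunit, had 406, 398 and 378 CPM in resveratrol pools, against 224, 242 and 259.7 CPM in control pools (log2 0.70, SE 0.16, adjusted p = 0.0369). In each the groups stood apart. Psma2 and Psmb1 rose by log2 0.72 and 0.70. With the offset only Psmb1 passed (log2 0.54, adjusted p = 0.0486), and without any 1 library none of the 36 did in the model of 18 libraries, against 1 to 13 in that of the 4 old groups. Romo1, a small protein of the mitochondrial inner membrane, was the 1 rise among 30 genes of mitochondrial import and inner membrane organisation (228, 203 and 204 CPM with resveratrol and 108, 108 and 143 CPM without, log2 0.82, adjusted p = 0.044), and it was not called with the offset (log2 0.43, adjusted p = 0.113).

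Fuel pathways upstream of the respiratory chain gave no rise. None of 18 tricarboxylic acid cycle enzymes passed in edgeR, 6 had an unadjusted p under 0.05 (3 in each direction), and DESeq2 called 1 each way. Mdh2, which makes oxaloacetate, had 595, 582 and 584 CPM in resveratrol pools, against 380.4, 364 and 464 CPM in control pools (log2 0.54, adjusted p = 0.208). Of 18 glycolytic enzymes 1 fell and 0 rose. This was Pfkp, the platelet form of the phosphofructokinase that commits glucose to glycolysis, with 141, 196 and 197 CPM in resveratrol pools, against 355, 316 and 286 CPM in control pools (log2 −0.84, SE 0.20, adjusted p = 0.0414) and no overlap. Pfkp kept its call with the offset (log2 −0.78, adjusted p = 0.0273) and did not pass when any 1 of the 6 libraries was left out (log2 −0.98 to −0.74, adjusted p 0.0615 to 0.232), with a call in 4 of 6 such fits of the 4 old groups. The abundant enzymes Eno1 (log2 −0.39, adjusted p = 0.277) and Aldoa (log2 −0.02, adjusted p = 0.977) did not pass. None of 20 regulators of mitochondrial number and shape passed in edgeR, 5 had an unadjusted p under 0.05, and DESeq2 called 1 higher.

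Some antioxidant enzymes rose, led by 2 peroxiredoxins, which reduce peroxides through a reactive cysteine. Of 35 tested antioxidant and glutathione genes 5 rose and 0 fell, with a median log2 difference of 0.40. Prdx5, found in mitochondria and peroxisomes (chromosome 19, 6906697 to 6910106, minus strand, GRCm38), had 328, 294 and 338 CPM in resveratrol pools, against 142, 145 and 181 CPM in control pools (log2 1.04, SE 0.16, adjusted p = 0.00418). Prdx4, of the endoplasmic reticulum, had 288, 194 and 199.9 CPM in resveratrol pools, against 102, 101 and 123 CPM in control pools (log2 1.07, SE 0.22, adjusted p = 0.0238). Sod2, the mitochondrial superoxide dismutase, had 173, 174 and 154 CPM in resveratrol pools, against 89.6, 91.8 and 100.3 CPM in control pools (log2 0.83, SE 0.19, adjusted p = 0.0376). In each of these 3 genes the lowest resveratrol pool lay far above the highest control pool. Gstp1, a glutathione transferase, had 322, 191 and 207 CPM in resveratrol pools, against 112, 108 and 127 CPM in control pools (log2 1.05, SE 0.23, adjusted p = 0.0287). Thioredoxin, Txn1, had 1226, 1064 and 1073 CPM in resveratrol pools, against 662, 672 and 689 CPM in control pools (log2 0.73, SE 0.18, adjusted p = 0.0438). With the offset Prdx5 kept both its size and its call (log2 1.04, adjusted p = 0.00233), while Prdx4 (log2 0.57, adjusted p = 0.136), Gstp1 (log2 0.60, adjusted p = 0.052), Sod2 (log2 0.82, adjusted p = 0.0845) and Txn1 (log2 0.26, adjusted p = 0.393) did not pass. Prdx5 did not pass without control pool 1 (log2 0.97, adjusted p = 0.0728) or without control pool 2 (log2 0.98, adjusted p = 0.0821), with a call in 6 of 6 such fits of the 4 old groups. The list had 0 to 2 calls over the 6 fits that leave out a library, and 2 to 6 in those of the 4 old groups.

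Genes best known as mediators of resveratrol gave no call. None of 21 genes of sirtuins, AMP-activated kinase and FOXO factors passed in edgeR, 3 had an unadjusted p under 0.05, all lower, and DESeq2 called none. Sirt1, the nuclear deacetylase, had 14.7, 16.7 and 9.76 CPM in resveratrol pools, against 10.7, 12 and 6.44 CPM in control pools (log2 0.50, SE 0.38, adjusted p = 0.565). Sirt3, its mitochondrial relative, had 23.5, 16.7 and 31.1 CPM in resveratrol pools, against 23.1, 21.7 and 27.4 CPM in control pools (log2 −0.02, SE 0.25, adjusted p = 0.987). Prkaa1, a catalytic subunit of AMP-activated kinase, had 52, 58.5 and 60.4 CPM in resveratrol pools, against 62.7, 70.9 and 46 CPM in control pools (log2 −0.07, adjusted p = 0.922). The groups overlapped in all 3. Among 9 tested genes of the aryl hydrocarbon and oestrogen receptors and their targets none passed in edgeR, 3 had an unadjusted p under 0.05, all 9 were below 0, and DESeq2 called 1 lower. Nfe2l2, the factor behind many antioxidant genes, had 189, 219.8 and 247 CPM in resveratrol pools, against 243, 255 and 212 CPM in control pools (log2 −0.12, adjusted p = 0.821). Ahr had 9.61, 14.6 and 21.4 CPM in resveratrol pools, against 15.7, 22.1 and 13.9 CPM in control pools (log2 −0.19, adjusted p = 0.846). Esr2, the main oestrogen receptor of granulosa cells, had 3.04, 1.88 and 5.61 CPM in resveratrol pools, against 4.19, 4.88 and 5.76 CPM in control pools (log2 −0.50, adjusted p = 0.699). Ppargc1a, a coactivator of mitochondrial genes, was under the filter on low counts and was not tested.

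The Tet enzymes, which oxidise 5-methylcytosine, did not pass either. Tet2 had 12.7, 16.6 and 14.4 CPM in resveratrol pools, against 12.3, 12.8 and 9.72 CPM in control pools (log2 0.33, SE 0.29, adjusted p = 0.634). Tet1 had 2.96, 2.78 and 2.44 CPM in resveratrol pools, against 3.73, 4.68 and 4.33 CPM in control pools (log2 −0.64, adjusted p = 0.569). Tet3 had 17.4, 15.9 and 13.6 CPM in resveratrol pools, against 12.9, 18.5 and 13 CPM in control pools (log2 0.07, adjusted p = 0.932). None of 9 genes of DNA methylation passed in edgeR, 0 had an unadjusted p under 0.05, and DESeq2 called none.

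Some mitotic genes rose with resveratrol. Of 44 tested genes of mitosis and DNA replication, 6 rose and 0 fell, 34 were above 0, and the median log2 difference was 0.30. Ube2c, the ubiquitin-conjugating enzyme of the anaphase-promoting complex, had 282, 187 and 184 CPM in resveratrol pools, against 57.5, 60 and 119.5 CPM in control pools (log2 1.46, SE 0.26, adjusted p = 0.0111). Birc5, survivin of the chromosomal passenger complex, had 95.9, 81.6 and 56.4 CPM in resveratrol pools, against 28.3, 32.5 and 44.5 CPM in control pools (log2 1.15, SE 0.23, adjusted p = 0.0238). Cks1b, a partner of cyclin-dependent kinases, had 203, 153 and 158 CPM in resveratrol pools, against 74.7, 82.7 and 108 CPM in control pools (log2 0.95, SE 0.19, adjusted p = 0.0238). Control pool 3 was the highest of the controls in all 3 genes, and it stayed below the lowest resveratrol pool. Stmn1, which destabilises microtubules, and the spindle checkpoint genes Bub3 and Mad2l1 rose by log2 0.81, 0.73 and 0.85. With the offset 7 of 44 passed, at a median of 0.31. Ube2c did not pass without resveratrol pool 1, control pool 1 or control pool 2 (log2 1.19 to 1.29, adjusted p 0.0918 to 0.117), with a call in 4 of 6 such fits of the 4 old groups. The list had 0 to 6 calls over the fits that leave out a library, 6 of them without control pool 3, and 0 to 15 in those of the 4 old groups.

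Among 23 genes of p53 and senescence 1 rose and 0 fell. Cdkn2b, which encodes the p15 inhibitor of cyclin-dependent kinases 4 and 6, had 31.1, 19.3 and 23.8 CPM in resveratrol pools, against 7.61, 6.76 and 9.79 CPM in control pools (log2 1.62, SE 0.33, adjusted p = 0.0238) and no overlap. It kept its call with the offset (log2 1.43, adjusted p = 0.0179) and did not pass without resveratrol pool 1, resveratrol pool 3, control pool 1 or control pool 2 (log2 1.38 to 1.58, adjusted p 0.0699 to 0.177), with a call in 5 of 6 such fits of the 4 old groups. Cdkn1a, the p21 inhibitor, had 191, 232 and 202 CPM in resveratrol pools, against 197, 197 and 199 CPM in control pools (log2 0.07, adjusted p = 0.941). Cholesterol genes had 1 rise among 32: Nsdhl, an enzyme of sterol synthesis, had 213, 166 and 163 CPM in resveratrol pools, against 96.1, 84.9 and 92.5 CPM in control pools (log2 0.99, SE 0.20, adjusted p = 0.0231), with no overlap, and it was called with the offset as well (log2 0.78, adjusted p = 0.0186).

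Of 25 genes of luteinization and steroid synthesis, 2 rose and 0 fell. Ptgfr, the prostaglandin F receptor through which the corpus luteum is brought to regress, had 65.5, 60 and 43.4 CPM in resveratrol pools, against 20, 9.71 and 15.3 CPM in control pools (log2 1.93, SE 0.40, adjusted p = 0.0238). Timp1, an inhibitor of matrix metalloproteinases, had 3310, 3347 and 3001 CPM in resveratrol pools, against 1750, 1861 and 2196 CPM in control pools (log2 0.73, SE 0.17, adjusted p = 0.0353). Neither overlapped between the groups. Ptgfr kept its call with the offset (log2 1.88, adjusted p = 0.0113) and did not pass when any 1 of the 6 libraries was left out (log2 1.68 to 2.17, adjusted p 0.0518 to 0.168), with a call in 5 of 6 such fits of the 4 old groups, and Timp1 was not called with the offset (log2 0.27, adjusted p = 0.39). None of 21 ovulation and cumulus genes passed in edgeR, 3 had an unadjusted p under 0.05, all lower, and DESeq2 called 2 lower. Tnfaip6, which links the cumulus matrix, overlapped between the groups, with 689, 1016 and 1143 CPM with resveratrol and 815, 775 and 933 CPM without.

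The falls included 1 gene of the cytokine feedback list, 1 of the lysosome list and the matricellular genes Cyr61 and Ctgf. Socs3, which is induced by STAT3 and shuts cytokine receptors down (chromosome 11, 117966079 to 117970047, minus strand, GRCm38), had 8.31, 9.49 and 5.94 CPM in resveratrol pools, against 56.4, 50.7 and 19.9 CPM in control pools (log2 −2.41, SE 0.45, adjusted p = 0.016). It was the 1 gene of 32 in the list of cytokine, STAT3 and NF-κB feedback that fell, and none rose. Control pool 3 was the lowest control, and it still lay above every resveratrol pool. Nfkbia, the inhibitor of NF-κB, had 143, 326 and 258 CPM in resveratrol pools, against 152, 149.8 and 338 CPM in control pools (log2 0.18, adjusted p = 0.823). Socs2 had 246, 201 and 214 CPM in resveratrol pools, against 223, 210 and 224 CPM in control pools (log2 0.01, adjusted p = 0.99). Socs3 kept its call with the offset (log2 −2.22, adjusted p = 0.0179) and did not pass without resveratrol pool 1, resveratrol pool 3, control pool 1 or control pool 2 (log2 −2.49 to −2.17, adjusted p 0.0613 to 0.117), with a call in 6 of 6 such fits of the 4 old groups.

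Cyr61 and Ctgf, secreted matricellular proteins known as targets of the Hippo effector YAP, fell together. Cyr61 had 11.7, 20.3 and 23.4 CPM in resveratrol pools, against 70.2, 66.6 and 49.1 CPM in control pools (log2 −1.75, SE 0.42, adjusted p = 0.0421). Ctgf had 8.74, 21.1 and 31.3 CPM in resveratrol pools, against 83.4, 57 and 70.6 CPM in control pools (log2 −1.78, SE 0.44, adjusted p = 0.044). In both genes the highest resveratrol pool was below the lowest control pool, and resveratrol pool 1 was the lowest of the 6. They were the 2 falls, with 0 rises, among 40 genes of activin, BMP, TGF-β, IGF and Hippo signalling. Both passed with the offset (Cyr61 log2 −1.80, adjusted p = 0.0286; Ctgf log2 −1.81, adjusted p = 0.0335). Cyr61 did not pass when any 1 of the 6 libraries was left out (log2 −2.01 to −1.54, adjusted p 0.0588 to 0.215), with a call in 6 of 6 such fits of the 4 old groups. Ctgf did not pass when any 1 of the 6 libraries was left out (log2 −2.29 to −1.46, adjusted p 0.0604 to 0.232), with a call in 2 of 6 such fits of the 4 old groups.

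Lamp1, a main glycoprotein of the lysosomal membrane, had 182, 215 and 124 CPM in resveratrol pools, against 418, 399.6 and 371 CPM in control pools (log2 −1.19, SE 0.26, adjusted p = 0.0279). It fell alone among 37 lysosomal genes, of which 0 rose. Of the 37, 25 were above 0, at a median log2 difference of 0.12. Ctsl, the lysosomal protease cathepsin L, had 4828, 5079 and 4772 CPM in resveratrol pools, against 4048, 3961 and 3479 CPM in control pools (log2 0.35, adjusted p = 0.32). Lamp1 was called with the offset (log2 −1.21, adjusted p = 0.0235) and did not pass without resveratrol pool 1, resveratrol pool 3, control pool 1, control pool 2 or control pool 3 (log2 −1.26 to −1.06, adjusted p 0.0548 to 0.184), with a call in 4 of 6 such fits of the 4 old groups. Alox15, a lipoxygenase, had 0.361, 7.34 and 8.21 CPM in resveratrol pools, against 39.4, 38.3 and 14.8 CPM in control pools (log2 −2.55, adjusted p = 0.0439). Mylk, the kinase that starts smooth-muscle contraction, had 1.95, 0.985 and 2.6 CPM in resveratrol pools, against 14.1, 11.8 and 12.9 CPM in control pools (log2 −2.79, adjusted p = 0.044), and it was the 1 fall among 7 contractile genes tested. Alox15 varied within both groups, and the rule for naming the largest falls required its groups not to overlap.

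The remaining large falls at 10 CPM or more came from genes of varied function. Ift57, of the intraflagellar transport that builds cilia, had 4.48, 6.54 and 4.31 CPM in resveratrol pools, against 25.8, 21.8 and 20.2 CPM in control pools (log2 −2.14, SE 0.42, adjusted p = 0.0231). Prune2 had 6.07, 7.16 and 11.6 CPM in resveratrol pools, against 27.5, 26.9 and 26.2 CPM in control pools (log2 −1.70, SE 0.40, adjusted p = 0.0369). Tmem87a, a membrane protein of the Golgi, had 7.3, 12.4 and 10.3 CPM in resveratrol pools, against 36.2, 34.7 and 22.7 CPM in control pools (log2 −1.64, SE 0.38, adjusted p = 0.035). In each of the 3 genes every control pool lay above every resveratrol pool, as the rule for naming the largest falls required. Eif3j2, a subunit gene of translation initiation factor 3 with a close copy in the genome, had a log2 difference of −1.70, and its reads can be shared with that copy. Myo7a, Rnf166, Atg16l2, Ctnnal1, Capn5 and Zfp27 fell as well, with log2 differences of −1.69, −1.66, −1.51, −1.45, −1.43 and −1.41. With the offset Myo7a (log2 −1.53, adjusted p = 0.052) and Capn5 (log2 −1.24, adjusted p = 0.0771) did not pass, and the others did. Each of these genes named here was lost without at least 4 of the 6 libraries.

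Immediate early genes, which respond to dissociation of tissue as well as to signals, gave no call. None of 28 passed in edgeR, 3 had an unadjusted p under 0.05, and DESeq2 called none. None of 20 heat shock chaperones passed, 5 had an unadjusted p under 0.05, 4 of them lower, and DESeq2 called 2 lower. Hspa8, the constitutive Hsc70, had 788, 883 and 930.2 CPM in resveratrol pools, against 1300, 1210 and 1549 CPM in control pools (log2 −0.64, adjusted p = 0.0569). It did not pass although the groups stood apart. None of 24 genes of the unfolded protein response, 27 of autophagy and 27 of the Bcl2 and caspase families passed in edgeR, 5, 9 and 4 had an unadjusted p under 0.05, and DESeq2 called 0, 2 and 0.

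Most of the largest rises were genes of macrophages and of osteoclasts, their bone-resorbing relatives. Mmp9, the gelatinase B that such cells secrete, had 47.3, 5.91 and 12.8 CPM in the resveratrol pools and no count in any control pool. Against a floor of 3 counts over the 3 control pools it was at least 336-fold higher, and at least 136-fold higher without resveratrol pool 1. Ctsk, the cysteine protease cathepsin K, had 270.4, 57.6 and 19 CPM in resveratrol pools, against 6.21, 3.7 and 4.64 CPM in control pools (log2 4.61, SE 0.60, adjusted p = 0.00162). Acp5, the tartrate-resistant acid phosphatase, had 139, 19.9 and 10.9 CPM in resveratrol pools, against 2.48, 3.45 and 1.92 CPM in control pools (log2 4.41, SE 0.70, adjusted p = 0.00584). Resveratrol pool 1 held by far the most of all 3 genes. Ctsk, Acp5 and Mmp9 were the 3 rises among 8 tested genes of the osteoclast list, which names 13. The 8 had a median log2 difference of 0.34 and a lowest of −0.64, and the members other than these 3 did not pass. Summed counts of the list were 0.0621%, 0.0192% and 0.0144% of resveratrol libraries 1, 2 and 3, and 0.0154%, 0.0158% and 0.0174% of the control libraries. The sums thus overlapped, while the 3 genes did not, as their naming among the largest rises required. Without resveratrol pool 1, Ctsk (log2 2.97, adjusted p = 0.00103) and Mmp9 (adjusted p = 0.0173) still passed and Acp5 did not (log2 2.50, adjusted p = 0.0738).

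Several markers of macrophages rose. Of 23 tested, 8 rose and 0 fell, and the median log2 difference was 1.82. Cd68, a lysosomal protein of phagocytes, had 62.5, 22.6 and 25.9 CPM in resveratrol pools, against 6.06, 8.63 and 7.68 CPM in control pools (log2 2.29, SE 0.33, adjusted p = 0.00277). Tyrobp, the adaptor DAP12, had 51.9, 17.2 and 26.3 CPM in resveratrol pools, against 1.09, 0.937 and 4.27 CPM in control pools (log2 3.85, SE 0.60, adjusted p = 0.0046). Fcer1g, the common chain of Fc receptors, had 21.6, 10.5 and 13.5 CPM in resveratrol pools, against 2.02, 1.33 and 3.34 CPM in control pools (log2 2.76, SE 0.49, adjusted p = 0.0118). All resveratrol pools lay above all control pools in these genes, as the rule for naming the largest rises required. The chains of complement C1q were lower and more uneven. C1qb had 17.1, 1.43 and 37.4 CPM in resveratrol pools, against 0, 0.69 and 1.36 CPM in control pools (log2 4.52, SE 1.00, adjusted p = 0.0331). C1qc had 12.9, 2.51 and 16.4 CPM in resveratrol pools, against 0.155, 0.395 and 0.743 CPM in control pools (log2 4.43, SE 0.84, adjusted p = 0.0219). Spi1, the myeloid factor PU.1, had 4.84, 2.33 and 5.37 CPM in resveratrol pools, against 0.311, 0.641 and 0.31 CPM in control pools (log2 3.21, SE 0.62, adjusted p = 0.0231). C1qa and Ctss were the other 2 rises.

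Other markers of the same cells did not pass. Ptprc, the leukocyte antigen CD45, had 1.81, 1.52 and 2.68 CPM in resveratrol pools, against 3.42, 1.04 and 0.557 CPM in control pools. Adgre1, the F4/80 antigen, had 0.0723, 0.179 and 0.976 CPM in resveratrol pools, against 0.155, 0.296 and 0.929 CPM in control pools. The groups overlapped in both, and the tests gave log2 0.41, adjusted p = 0.801 for Ptprc and log2 −0.29, adjusted p = 0.915 for Adgre1. The 24 macrophage genes summed to 0.0932%, 0.105% and 0.121% of resveratrol libraries and to 0.0704%, 0.0774% and 0.0847% of control libraries, with no overlap. In young wild-type pools, where 17 or 18 of the 24 genes had no count, the sum was still 0.0441% to 0.0535%. A few abundant members can thus carry much of this sum. At most 1 gene of the list was without a count in a resveratrol library, against 1 to 4 in a control library. The part of macrophage number in these rises was not tested. Ccl9 and Ccl6, chemokines of myeloid cells, rose too. Ccl9 had 93.2, 13.9 and 17.8 CPM in resveratrol pools, against 0.155, 0.888 and 1.3 CPM in control pools (log2 5.53, SE 0.84, adjusted p = 0.00455). It passed without resveratrol pool 1 (log2 4.10, adjusted p = 0.0197), and it did not pass without control pool 1 (log2 5.24, adjusted p = 0.0502) or without control pool 2 (log2 5.53, adjusted p = 0.0733), with a call in 6 of 6 such fits of the 4 old groups. Ccl6 had 13.7, 13.6 and 49 CPM in resveratrol pools, against 0.155, 5.03 and 1.24 CPM in control pools (log2 3.36, SE 0.85, adjusted p = 0.048). DESeq2 called 3 of the 23. Over the fits that leave out a library the list had 0 calls without control pool 1, 1 without control pool 2, 2 without resveratrol pool 1, 3 without resveratrol pool 3, 4 without control pool 3 and 7 without resveratrol pool 2. In the model of the 4 old groups these fits had 5 to 10 calls.

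**Figure D4:**
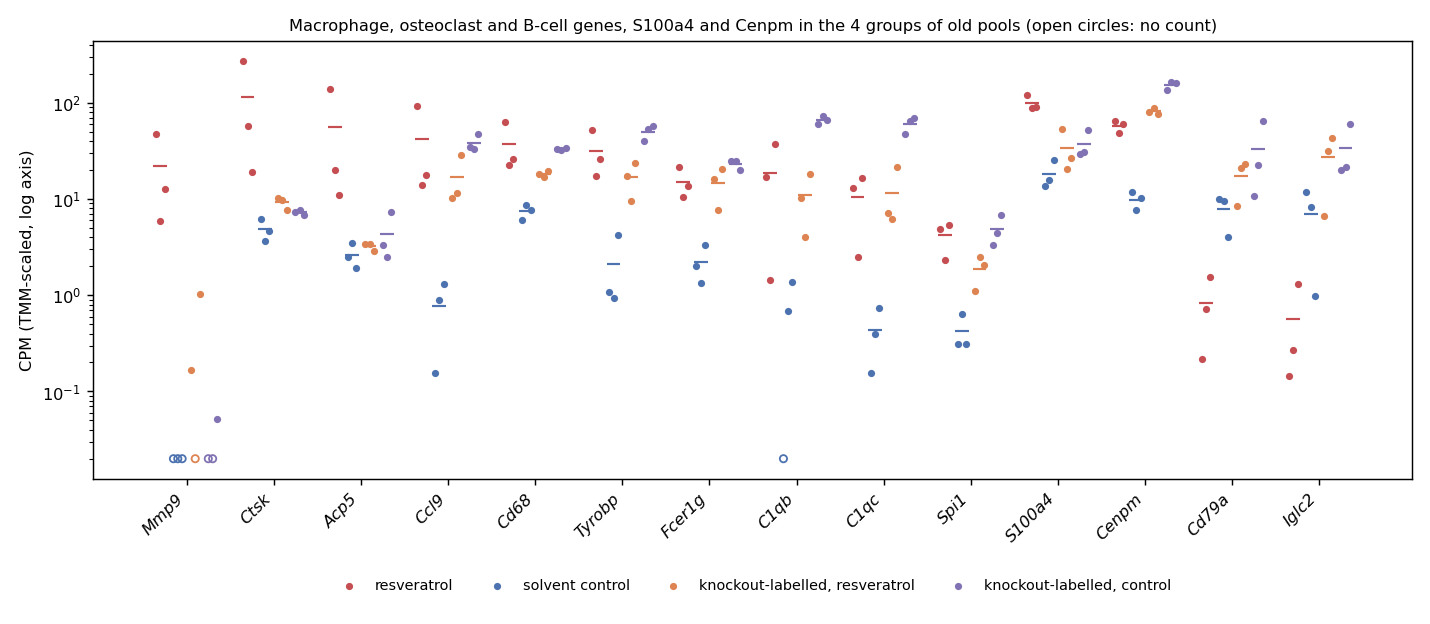
Level of macrophage, osteoclast and B-cell genes, S100a4 and Cenpm in each library of the 4 groups of old pools, as TMM-scaled CPM on a log axis: wild-type resveratrol (red), wild-type control (blue), knockout-labelled resveratrol (orange) and knockout-labelled control (purple), 1 dot per library, lines at means, open circles at the bottom for no count. Cd68 lies at 22.6 to 62.5 CPM in wild-type resveratrol pools and 6.06 to 8.63 CPM in wild-type controls.

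Some markers of B cells fell, at low counts. Of 7 tested lymphocyte genes 3 fell and 0 rose. All 7 had an unadjusted p under 0.05 in edgeR, 6 of them lower and 1 higher, the latter at log2 3.44. DESeq2 called 2 lower. Cd79a, of the B-cell receptor, had 0.217, 0.716 and 1.54 CPM in resveratrol pools, against 9.94, 9.47 and 4.03 CPM in control pools (log2 −3.23, SE 0.68, adjusted p = 0.0273). The light chain gene Iglc2 had 0.144, 0.269 and 1.3 CPM in resveratrol pools, against 11.8, 8.33 and 0.991 CPM in control pools (log2 −3.56, SE 0.86, adjusted p = 0.044), and its control pool 3 was below resveratrol pool 3. Cd79a did not pass without resveratrol pool 1, resveratrol pool 2, control pool 1 or control pool 2 (log2 −3.21 to −2.79, adjusted p 0.106 to 0.161), with a call in 2 of 6 such fits of the 4 old groups. Iglc2 did not pass without resveratrol pool 1, resveratrol pool 2, resveratrol pool 3, control pool 1 or control pool 2 (log2 −5.07 to −3.04, adjusted p 0.0613 to 0.227), with a call in 1 of 6 such fits of the 4 old groups. The list had 0 falls without resveratrol pools 1 or 2 or control pools 1 or 2, in both models, 4 without resveratrol pool 3 in both, and 3 without control pool 3, against 5 with the 4 old groups. The list summed to 0.000305% to 0.00202% of resveratrol libraries and 0.00145% to 0.00871% of control libraries. Red-cell RNA varied widely within both groups. Hbb-bs, a beta globin, had 3299, 166 and 294 CPM in resveratrol pools, against 1411, 1582 and 109.7 CPM in control pools (log2 0.28, adjusted p = 0.917). Surface epithelium genes were all below 0, with 7 tested, a median log2 of −1.30 and none passed in edgeR, 3 at an unadjusted p under 0.05 and none by DESeq2. Of the stroma, theca, endothelial and oocyte markers tested (5, 4, 4 and 8 genes) none passed in edgeR, 1, 0, 0 and 0 had an unadjusted p under 0.05, and DESeq2 called none. None of 6 MHC class II, 5 granulocyte and 5 erythroid genes passed in edgeR, 1, 3 and 0 had an unadjusted p under 0.05, and DESeq2 called none. The part of such cells in other results was not tested.

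A few of the largest rises belonged to neither list. S100a4, a calcium-binding protein of motile cells and fibroblasts as well as macrophages, had 121, 88.9 and 90 CPM in resveratrol pools, against 13.7, 15.9 and 25.3 CPM in control pools (log2 2.44, SE 0.33, adjusted p = 0.0017) and passed without each of the 6 libraries in turn (log2 2.24 to 2.73), with a call in 6 of 6 such fits of the 4 old groups. A gene model named after a genomic clone carried nearly the same values, 124, 90.8 and 91.9 CPM with resveratrol and 15.8, 17.3 and 29.2 CPM without, so reads may be counted under both names. Cenpm, a centromere protein, had 64.6, 48 and 60 CPM in resveratrol pools, against 11.8, 7.64 and 10.2 CPM in control pools (log2 2.56, SE 0.41, adjusted p = 0.0046) and did not pass without control pool 1 (log2 2.69, adjusted p = 0.0502) or without control pool 2 (log2 2.39, adjusted p = 0.09), with a call in 6 of 6 such fits of the 4 old groups. Both genes kept tight groups, and the rule for naming the largest rises required their groups not to overlap. Trim12a, an antiviral-type TRIM protein with close copies in the genome, had 1.08, 159.6 and 160.1 CPM in resveratrol pools, against 0.621, 0.197 and 0 CPM in control pools (log2 9.03, SE 1.86, adjusted p = 0.0238), as the 1 rise among 19 interferon response genes. This rise rests on resveratrol pools 2 and 3, since pool 1 was at the control level, and it passed in 1 of the 6 fits that leave out a library. Pebp4 (16.3, 9.67 and 8.87 CPM with resveratrol and 2.02, 3.3 and 1.98 CPM without) and the interferon-inducible Ifi27l2a (38.1, 3.31 and 4.39 CPM with resveratrol and 1.4, 2.52 and 1.73 CPM without) completed the 15 largest rises. Ifi27l2a was carried by resveratrol pool 1, without which its log2 difference was 0.95.

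The effect of resveratrol was then set against its effect in old pools labelled Tet2 knockout, where Tet2 was not lower than in wild type (17.7, 10.2 and 16.8 CPM with resveratrol and 21.5, 13.6 and 11.9 CPM without). The difference between the effects passed for 28 of 17558 genes (0.159%), 26 with the more positive effect in wild type and 2 with the more negative. S100a4 and the clone-named model with nearly the same values were both among the 28. Of 205 genes that rose in wild type, 141 had a positive difference under the knockout label, and of 80 that fell 52 had a negative one, while 8945 of all 17558 tested genes were positive there. No respiratory chain or ribosomal protein gene of the lists was among the 28, although their medians were lower under the label. For complex IV the median was 0.82 in wild type and 0.15 under the label. Summed counts of complex IV were 0.571% to 0.678% of wild-type resveratrol and 0.381% to 0.462% of wild-type control libraries. Under the label they were 0.61% to 0.726% with resveratrol and 0.564% to 0.612% without. Proteasome sums without resveratrol were 0.905% to 0.963% under the label and 0.759% to 0.826% in wild type. For large-subunit ribosomal proteins these were 3.46% to 3.72% and 2.83% to 3.14%. Cox6b1 had 1046, 829.5 and 885 CPM with resveratrol and 844, 783 and 824 CPM without under the label, and its difference between effects did not pass (difference in log2 0.68, SE 0.26, adjusted p = 0.479).

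Macrophage genes supplied 6 of the 28, and the 3 given here were lower with resveratrol under the label. Cd68 had 18.2, 17.1 and 19.5 CPM with resveratrol and 33, 32 and 33.6 CPM without in knockout-labelled pools (difference in log2 3.14, SE 0.46, adjusted p = 0.00469). Tyrobp had 17.4, 9.52 and 23.9 CPM with resveratrol and 40, 54 and 56.8 CPM without (difference in log2 5.43, SE 0.79, adjusted p = 0.00497). C1qc had 7.2, 6.18 and 21.3 CPM with resveratrol and 47.3, 65 and 69.7 CPM without (difference in log2 6.83, SE 1.05, adjusted p = 0.00663). Knockout-labelled controls therefore held more of all 3 than any wild-type control pool. Summed macrophage counts were 0.0974% to 0.129% of knockout-labelled resveratrol libraries and 0.203% to 0.245% of knockout-labelled control libraries.

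Prdx5 and Cenpm also differed between the effects. Prdx5 had 267, 257 and 228 CPM with resveratrol and 242, 277 and 273 CPM without under the label (difference in log2 1.11, SE 0.23, adjusted p = 0.0365), so all 6 of these pools were above the wild-type controls. Cenpm had 80.5, 88.6 and 77.4 CPM with resveratrol and 137, 165 and 163 CPM without (difference in log2 3.47, SE 0.56, adjusted p = 0.00663). Trim12a had 0.499, 0.0606 and 0.146 CPM with resveratrol and 372, 45.5 and 0.0515 CPM without (difference in log2 18.11, SE 2.56, adjusted p = 0.00469). Trim12a was thus high in 2 wild-type resveratrol pools and in 2 knockout-labelled control pools, and at most 1.08 CPM in the other old pools. Ccl9 had 10.2, 11.5 and 28.6 CPM with resveratrol and 35.1, 33 and 47.2 CPM without (difference in log2 6.73, SE 1.06, adjusted p = 0.00727). Leaving out 1 of the 6 wild-type libraries left 4 to 26 genes with a difference between effects, the fewest without control pool 2.

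The number of calls rested heavily on single libraries. Without resveratrol pools 1, 2 or 3, 17, 39 and 35 genes passed, and without control pools 1, 2 or 3, 3, 4 and 80. Of the 285 genes, 3, 4 and 68 were kept without control pools 1, 2 or 3, and 13, 37 and 28 without resveratrol pools 1, 2 or 3. In the model of the 4 old groups, which leaves out the young libraries, all but 1 of them at 470647 to 749172 counts, 1093 genes passed and all 285 were among them. There, 71 and 93 passed without control pools 1 or 2, and 936 without control pool 3. Of 93 named genes that passed, 60 passed in none of the 6 fits that leave out a library, 15 in 1, 7 in 2, 3 in 3, 4 in 4, 1 in 5 and 3 in all 6. Mmp9, Ctsk and S100a4 passed without each of the 6 libraries in turn, in both models.

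**Figure D5:**
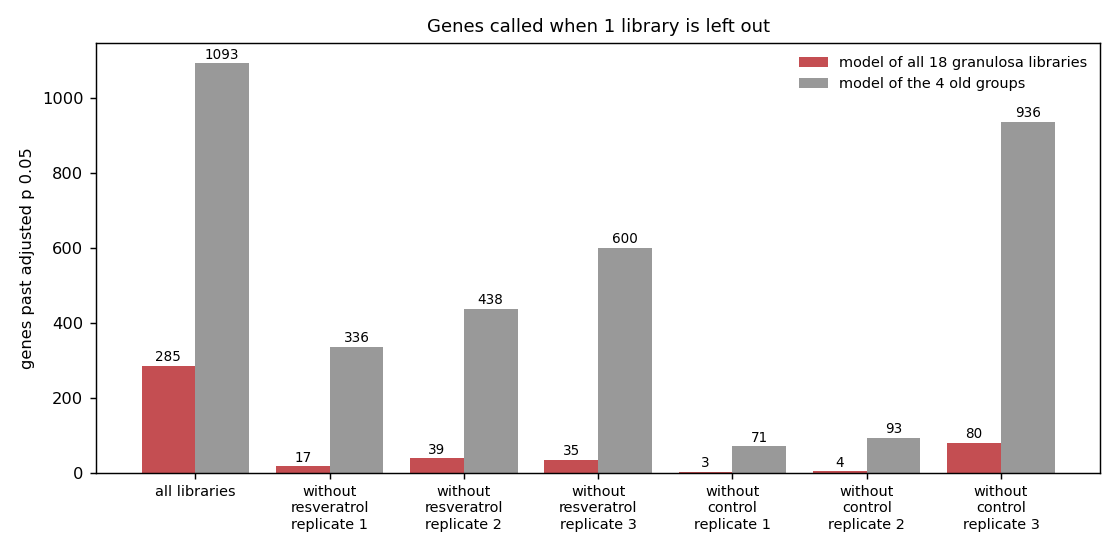
Number of genes past an adjusted p of 0.05 with all libraries and with each of the 6 libraries left out, in the model of all 18 granulosa libraries (red) and in the model of the 4 old groups (grey). Bars start at 0; the count is 285 with all libraries and 3 and 4 without control pools 1 and 2 in the first model, and 1093, 71 and 93 in the second.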

How the data were processed

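The authors deposited raw read counts per gene, 1 column per library, for 53619 gene symbols. Per the submitters' processing notes the tools included HISAT2 2.1.0, featureCounts and DESeq2, with mm10 as the genome build. The strand setting of the count step was not given. The 18 granulosa columns were used and 171 oocyte columns of the same table were not. Groups were taken from the sample titles. Counts were tested as deposited in R 4.3.3 with edgeR 4.0.16: TMM scaling, a filter with a minimum count of 10, and 1 quasi-likelihood model of 18 libraries in 6 groups of 3 (12 residual degrees of freedom, biological coefficient of variation 0.306). P-values were adjusted over all 17558 genes tested by Benjamini-Hochberg, with a threshold of 0.05, and the same model gave the difference from the knockout-labelled effect. Fold changes are resveratrol over control, on the log2 scale. CPM are scaled by TMM. No 2 libraries had identical counts. DESeq2 1.42.0 and edgeR with DESeq2's size factors (RLE) were alternatives, as were thinning, other sets of groups, a replicate block and leaving out each library.

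Transcript length and GC content came from GENCODE release 21 of the mouse, matched by symbol for 78.4% of tested genes. A check over all tested genes would therefore be void, and the offset (a loess of span 0.3 per library) was fitted over the 13762 genes with a length alone. Named genes are the 15 largest rises and falls past the threshold with at least 10 CPM and no overlap, up to 6 passing members of each list (or 2 abundant ones where fewer than 2 passed), Tet1, Tet2, Tet3, Sirt1, Sirt3, Prkaa1, Ppargc1a, Nfe2l2, Ahr and Esr2, and the 6 lowest p-values for the difference between effects. Numbered, clone-named and pseudogene models were left out of the largest changes. C1qa, Ctss, Ptprc, Adgre1, Foxl2, Cyp19a1 and the clone-named model beside S100a4 were chosen after their values were seen. The comparison and the lists were chosen with earlier results of these data known. The main fit was tested on simulated counts, where it called 42 of 100 genes changed to 2 or 0.5 times their level. Of 100 changed to 4 or 0.25 times it called 97. A gene or list without a call is therefore not shown to be unchanged. The values of 1 lymphocyte gene are not reported here.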

Additional observations from a re-analysis of the deposited data

Results flagged for a closer look

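Genes were picked out here because the effect of resveratrol differed between old wild-type and old knockout-labelled granulosa pools by the test of the difference itself, at an adjusted p under 0.05 in edgeR. There were 28 such genes among 17558 tested. Values are log2 differences of the effects, wild type minus knockout-labelled.

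Among genes of macrophages and osteoclasts the differences were 7.13 for C1qb, 6.83 for C1qc, 5.43 for Tyrobp, 4.58 for Spi1, 3.42 for Fcer1g, 3.14 for Cd68, 4.86 for Acp5 and 4.26 for Ctsk, and it was 6.73 for the chemokine Ccl9. C1qb had few counts in the wild-type control pools, with 0, 14 and 22 in pools 1, 2 and 3. Acp5 had 3.44, 3.4 and 2.91 CPM in knockout-labelled resveratrol pools and 3.29, 2.52 and 7.26 CPM in knockout-labelled control pools.

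Trim12a had a difference of 18.11, and it was high in resveratrol pools 2 and 3 of wild type and in knockout-labelled control pools 1 and 2. Its counts were 4, 4 and 0 in wild-type control pools 1, 2 and 3, so the size of its difference is uncertain. Cenpm differed by 3.47, S100a4 by 2.59 and Prdx5 by 1.11. Prune2 differed by −2.79, with 20, 21.8 and 21.6 CPM in knockout-labelled resveratrol pools and 13.5, 12.4 and 4.17 CPM in knockout-labelled control pools.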

How the results depend on the processing

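The 285 genes past the threshold became 165 with RLE size factors, 542 with no filter on low counts (260 higher and 282 lower), 1783 with only the 6 libraries compared, 1093 with the 4 old groups, 1110 with the 4 old groups thinned to the shallowest old library, 11 with all libraries thinned to the shallowest, 13 against a minimum fold of 1.5, and 823 with DESeq2. With the length and GC offset 276 passed, of which 138 were shared with the 285; over the same 13762 genes with no offset 309 passed, of which 245 were shared. Alternatives chosen after seeing the data gave 838 (4 old groups with the offset) and 1113 (4 old groups, genes with a length). Leaving out 1 library gave 3 to 80 genes in the model of 18 libraries and, in the model of the 4 old groups, 336, 438 and 600 without resveratrol pools 1, 2 and 3 and 71, 93 and 936 without control pools 1, 2 and 3. Of 93 named genes past the threshold, 39 were lost with RLE, 46 with the offset, 8 with DESeq2, 90 and 89 without control pools 1 and 2, and 0 with the 4 old groups. None of these 93 changed sign under an alternative that gave it a value. Some list medians did, among them these: the erythroid median of 0.28 was −0.47 with the offset and −2.21 without resveratrol pool 1, and the interferon median of 0.09 was −0.28 without resveratrol pool 1. The causes were not tested, beyond the lower counts that thinning gives by construction.

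The 28 genes whose effect differed from that in knockout-labelled pools became 252 with no filter, 67 with the 4 old groups, 84 with these thinned, 1 with all libraries thinned, 73 with DESeq2, 79 with the 4 old groups and the offset, and 53 with the 4 old groups and genes with a length. They numbered 4 to 26 with 1 library left out.

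Same-numbered pools showed no shared deviation in level: their deviations from the group means correlated at −0.0538, 0.00634 and −0.0554. These values cannot show whether same-numbered pools were collected or prepared together. A fit with the replicate number as a block called 107 genes, and 178 with the block and the offset.

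The shallowest of the 6 libraries, control pool 1, held 5995491 counts, and 4 of 24 macrophage genes had no count in it. Control pools 2 and 3, at 18474409 and 14831950 counts, had 1 and 2 such genes. Resveratrol pools 1, 2 and 3, at 15084391, 11950782 and 13067511 counts, had 1, 1 and 0. The part of depth in the low counts was not tested.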
